A study of Mus musculus with 4 samples.

Results

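The genes of class I phosphoinositide 3-kinase (PI3K) and of the AKT kinases were read in the 4 RNA-seq libraries of the study. The members were the 9 genes Pik3ca, Pik3cb, Pik3cd, Pik3r1, Pik3r2, Pik3r3, Pik3r5, Akt1 and Akt2, taken by symbol from a table of 49585 genes, and each symbol matched 1 row. All 9 had an FPKM (a fragment count scaled to exon length and to the depth of the library) of at least 1 in at least 1 library, as did 12669 genes in all, which are called expressed here. The class I genes Pik3cg and Pik3r6 were not among the 9, and their values are given apart.

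The cells were 4T1, a murine line of triple-negative breast cancer (TNBC), in the form of a highly metastatic clone, 4T1-HM, and a clone of low metastatic capacity, 4T1-LM. Each clone was grown up from a single cell, so each stands for 1 clone. Cultures received either 50 µM of deferasirox (DFX), an oral iron chelator, or the DMSO in which it is dissolved, and RNA was taken after 48 h. The libraries are HM_Ctrl (4T1-HM with DMSO), HM_DFX (4T1-HM with DFX), LM_Ctrl (4T1-LM with DMSO) and LM_DFX (4T1-LM with DFX), with 1 library per condition. No comparison therefore rests on replicates, and p-values are not given. The depth was 14363065 to 21883855 fragments per library. Where a ratio of FPKM is followed by an interval, it is the 95% exact (Clopper-Pearson) interval of the fragment counts, which covers counting error only and not the variation between cultures. Fold changes are log2 ratios of FPKM + 1, which shrinks the values of genes near or under an FPKM of 1. Genes with a fold change of 2 or more on that scale were called.

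Class I PI3K phosphorylates the membrane lipid PIP2 to PIP3 when receptor tyrosine kinases, RAS or G protein-coupled receptors are engaged. Each enzyme is a heterodimer of a p110 catalytic subunit and a regulatory subunit that stabilises, inhibits and localises it. PIP3 draws AKT to the membrane, where PDK1 and mTORC2 phosphorylate it, and active AKT then phosphorylates proteins that govern growth, survival and metabolism. The pathway is often activated in breast cancer, with PIK3CA among its most frequently mutated genes. The study used these libraries to ask what sets the response of 4T1-HM to iron depletion apart from that of 4T1-LM, and it followed the PI3K-AKT pathway from there.

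Of the 9 members, Akt1, Pik3r2 and Pik3r5 changed by at least 2-fold on the FPKM + 1 scale under DFX in at least 1 clone. Pik3r2 did so only without median-ratio scaling of the libraries. Pik3cd, not called on that scale, fell 3.09-fold in FPKM in 4T1-LM. The promoters of Akt1, Pik3r2 and Pik3r5 are shown because these 3 genes were called on that scale. Each line holds the 250 bases before the transcription start, 5′ to 3′ on the strand of the gene, from RefSeq sequence on the build GRCm38.p6. All 9 members matched an entry in the RefSeq table. Capitals mark matches, on either strand, to the core of the binding site of hypoxia-inducible factor (ACGTG or GCGTG), to the E-box CACGTG, which contains ACGTG, or to the forkhead motif TGTTTAC bound by FOXO factors.
Akt1, chr12:112674885-112675134, minus strand: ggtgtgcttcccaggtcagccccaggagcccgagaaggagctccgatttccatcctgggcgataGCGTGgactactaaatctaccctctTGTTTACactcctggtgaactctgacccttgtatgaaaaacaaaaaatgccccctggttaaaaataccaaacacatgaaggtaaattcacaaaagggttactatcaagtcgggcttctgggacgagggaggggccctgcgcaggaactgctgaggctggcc
Pik3r2, chr8:70776713-70776962, minus strand: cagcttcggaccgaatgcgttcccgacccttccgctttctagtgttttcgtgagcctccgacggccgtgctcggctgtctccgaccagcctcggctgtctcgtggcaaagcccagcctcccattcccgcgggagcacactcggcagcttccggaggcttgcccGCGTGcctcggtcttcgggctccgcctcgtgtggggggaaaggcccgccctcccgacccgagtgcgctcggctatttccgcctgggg
Pik3r5, chr11:68431875-68432124, plus strand: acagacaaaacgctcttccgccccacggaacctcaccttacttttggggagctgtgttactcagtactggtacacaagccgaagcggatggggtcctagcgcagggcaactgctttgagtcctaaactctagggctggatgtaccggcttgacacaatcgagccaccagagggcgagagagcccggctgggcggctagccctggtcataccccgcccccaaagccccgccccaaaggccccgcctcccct

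The Akt1 window held 1 match to GCGTG and 1 to TGTTTAC, and its GC content was 52%. The Pik3r2 window, with a GC content of 68.4%, held 1 match to GCGTG. The Pik3r5 window, with a GC content of 61.6%, held no match to any of the 4 motifs, which says only that these letters are not in those 250 bases. Over the 32851 RefSeq promoter windows of the same length, GCGTG was found in 28.2%, ACGTG in 16.6%, CACGTG in 6.02% and TGTTTAC in 3.17%. Akt1 has another RefSeq start 608 bases inside the gene, whose window, with a GC content of 78.4%, held 1 match to GCGTG and none to TGTTTAC. The matches are descriptions of the sequence, and no binding was measured.

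**Figure D1:**
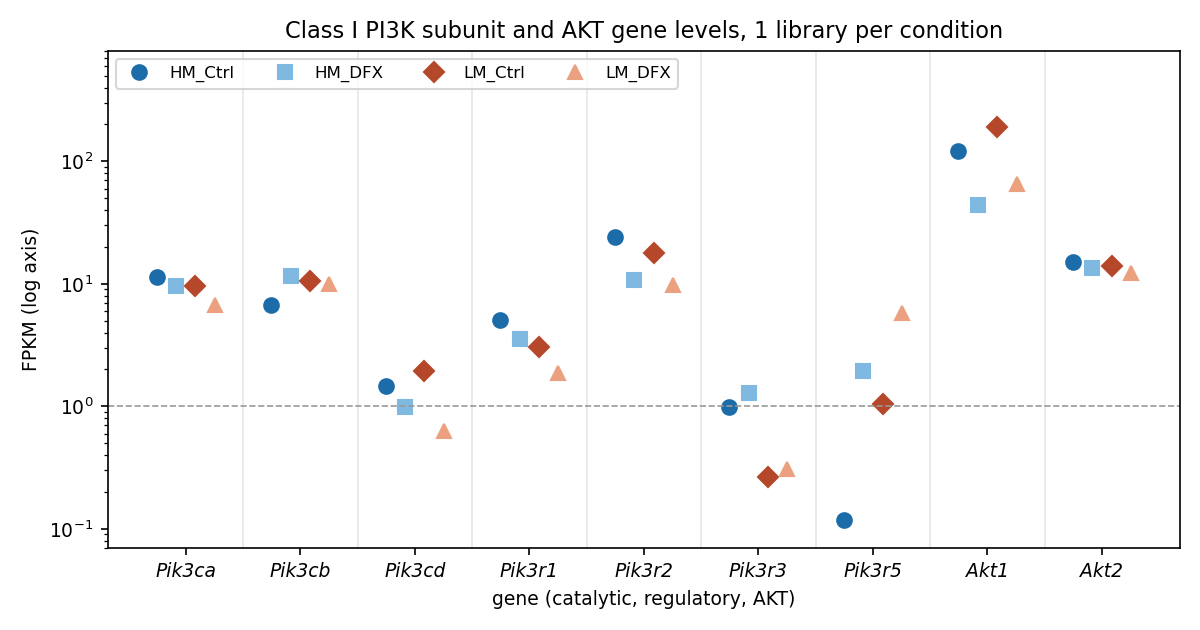
FPKM of the 9 members (log axis) in HM_Ctrl, HM_DFX, LM_Ctrl and LM_DFX, 1 point per library, with a dashed line at an FPKM of 1. Akt1 lies between 44.0 and 189, above every other member in each library, and Pik3r5 spans the widest range, from 0.118 to 5.77.

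FPKM is per length, so levels of different genes can be set side by side. Akt1 was the most abundant member in each library, and its level was above that of 90.0% to 98.2% of the expressed genes. Pik3r2 followed in HM_Ctrl and LM_Ctrl, and Akt2 in HM_DFX and LM_DFX. The highest library had 48.8 times the FPKM of the lowest for Pik3r5, 4.83 times for Pik3r3 and 4.30 times for Akt1. The ratio was 3.09 for Pik3cd, 2.74 for Pik3r1, 2.43 for Pik3r2, and 1.70 for both Pik3ca and Pik3cb. Akt2 was the steadiest member, with a ratio of 1.24.

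The libraries were first checked for treatment and cell type. The transferrin receptor gene Tfrc, whose mRNA is stabilised when iron is low, was at an FPKM of 102 in HM_Ctrl and 175 in HM_DFX, against 107 in LM_Ctrl and 188 in LM_DFX. Ndrg1, a gene induced by iron chelators, had 177, 577, 49.1 and 613 in the same order. Of 10 epithelial markers, 8 were expressed, among them Epcam, Cdh1, Krt8 and Krt18, whereas Krt5 was at 0 in each library. Cldn7 reached at most 0.620. Of the leukocyte, endothelial and fibroblast markers, only Cd68 and Pdgfra reached an FPKM of 1 in each library. The leukocyte markers Ptprc, Cd3e and Adgre1 were at 0 or no higher than 0.0139, and the values of Cd68 are given beside Pik3r5. The 4 endothelial markers summed to at most 0.203 and the 6 fibroblast markers to 3.51 to 5.64, of which Pdgfra gave most.

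Akt1 (ENSMUSG00000001729, chromosome 12 from 112653821 to 112674884 of mm10, minus strand) encodes AKT1, the widely expressed AKT isoform that acts in cell growth and survival. Its FPKM was 123 (HM_Ctrl), 44.0 (HM_DFX), 189 (LM_Ctrl) and 65.6 (LM_DFX), from 8407, 2592, 12208 and 5886 fragments. Both control libraries were above both DFX libraries, and within each treatment 4T1-LM was above 4T1-HM. Under DFX Akt1 fell by 1.46 on the log2 scale in 4T1-HM and by 1.51 in 4T1-LM. In FPKM this was a fall of 2.78-fold (interval 2.66 to 2.91) and of 2.89-fold (2.80 to 2.98). Only 4.64% of the expressed genes had a lower fold change in 4T1-HM, and 3.02% in 4T1-LM. In bulk RNA, fewer cells that express a gene and less RNA of it per cell cannot be told apart.

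The difference of these log2 fold changes, HM minus LM, was 0.06, the counting intervals overlapped, and 61.6% of the expressed genes had a lower difference. Between the clones Akt1 was lower in 4T1-HM, with an FPKM ratio of 0.647 (0.629 to 0.665) in the controls and 0.671 (0.640 to 0.703) under DFX. On the FPKM + 1 scale these were log2 fold changes of −0.62 and −0.57, short of 2-fold. Epithelial markers moved in the same direction under DFX as Akt1. Their summed FPKM was 1874 in HM_Ctrl and 614 in HM_DFX, against 2396 in LM_Ctrl and 1139 in LM_DFX. Of the 8 expressed markers, 6 were at least 2-fold lower in HM_DFX and none higher, and in LM_DFX 3 were lower and 1 was higher. Over all expressed genes 12.4% were lower and 6.93% higher in 4T1-HM, and 8.72% and 7.09% in 4T1-LM. The part of this shift of the epithelial markers in the Akt1 values was not tested.

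Akt2 (ENSMUSG00000004056, chromosome 7 from 27591552 to 27640826, plus strand) encodes the isoform best known for insulin-driven glucose uptake. Its FPKM was 15.1 (HM_Ctrl), 13.5 (HM_DFX), 14.1 (LM_Ctrl) and 12.2 (LM_DFX). The 4 libraries lay within a narrow band, and the DFX library was the lower one in each clone. The log2 fold change under DFX was −0.16 in 4T1-HM and −0.20 in 4T1-LM, with FPKM ratios of 0.891 (0.830 to 0.956) and 0.864 (0.808 to 0.924). Median-ratio scaling of the libraries, which sets the typical gene to no change, brought the value in 4T1-HM to −0.03. The controls differed by a ratio of 1.07 (1.00 to 1.15). Of the 31-mers of Akt2, 13.3% also occur in another gene, most often in the pseudogene Akt2-ps.

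As Akt1 fell while Akt2 stayed near its level, the balance of these genes differed between control and DFX libraries. Akt1 made up 89.0% of the summed FPKM of Akt1 and Akt2 in HM_Ctrl and 76.5% in HM_DFX. In 4T1-LM its share was 93.1% in LM_Ctrl and 84.3% in LM_DFX. The counting intervals of these 4 shares do not overlap, the nearest pair being 88.5% to 89.5% and 92.7% to 93.4%. The summed FPKM of both genes was 138 in HM_Ctrl and 57.5 in HM_DFX, against 203 in LM_Ctrl and 77.8 in LM_DFX. This sum was lower in both DFX libraries, and at each treatment it was higher in 4T1-LM than in 4T1-HM.

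**Figure D2:**
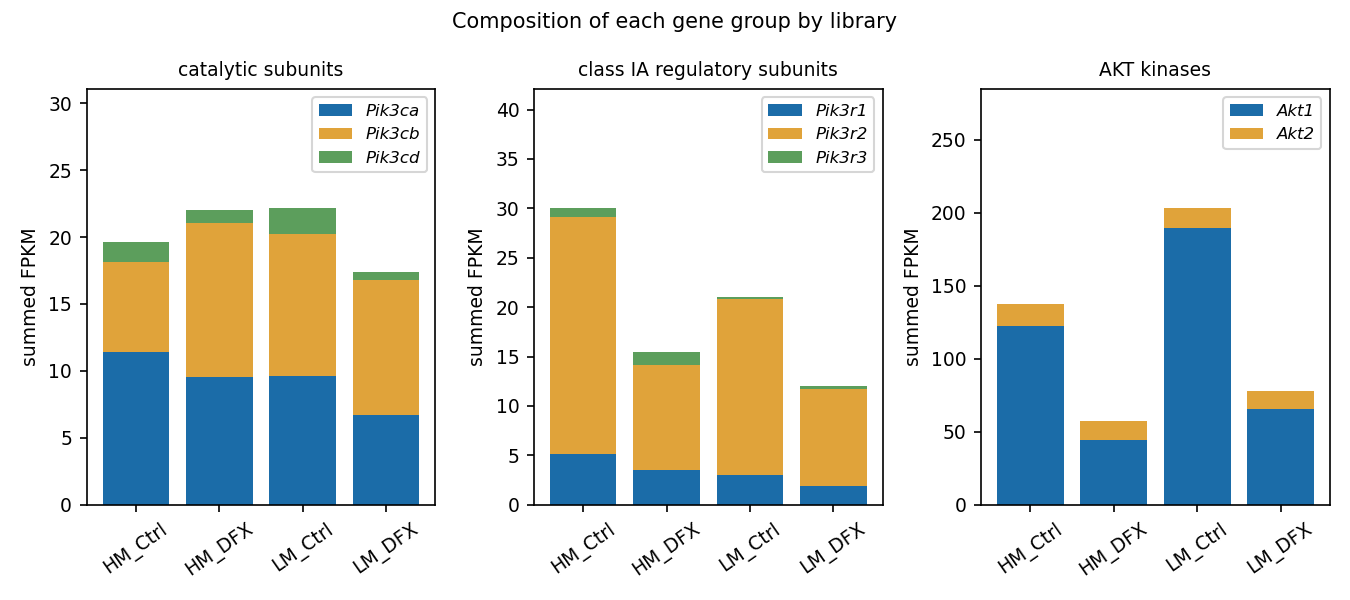
Summed FPKM of the catalytic genes, the class IA regulatory genes and the AKT genes Akt1 and Akt2 in each library, with bars stacked by gene and axes starting at 0. The AKT bars are 138 and 203 in HM_Ctrl and LM_Ctrl against 57.5 and 77.8 with DFX, and the regulatory bars are 30.1 and 21.1 against 15.5 and 12.0.

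Among the catalytic genes, the subunit with the higher FPKM differed between the controls. Pik3ca (ENSMUSG00000027665, chromosome 3 from 32397671 to 32468486, plus strand) encodes p110α, which serves receptor tyrosine kinases and RAS. Its FPKM was 11.4 (HM_Ctrl), 9.52 (HM_DFX), 9.60 (LM_Ctrl) and 6.71 (LM_DFX). HM_Ctrl was the highest library and LM_DFX the lowest, and the range was 1.70-fold. The log2 fold change under DFX was −0.24 in 4T1-HM and −0.46 in 4T1-LM, with FPKM ratios of 0.836 (0.776 to 0.899) and 0.699 (0.648 to 0.754). Median-ratio scaling brought the log2 value in 4T1-HM to −0.11. Pik3ca was higher in 4T1-HM than in 4T1-LM, by a ratio of 1.19 (1.11 to 1.28) in the controls and 1.42 (1.31 to 1.53) under DFX. Neither contrast reached 2-fold.

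Pik3cb (ENSMUSG00000032462, chromosome 9 from 99036654 to 99140621, minus strand) encodes p110β, which can also be driven by G protein-coupled receptors. Its FPKM was 6.75 in HM_Ctrl and 11.5 in HM_DFX, against 10.6 in LM_Ctrl and 10.1 in LM_DFX. HM_Ctrl stood below the other 3 libraries, which lay close together. The FPKM ratio under DFX was 1.70 (1.56 to 1.86) in 4T1-HM and 0.945 (0.876 to 1.02) in 4T1-LM, an interval that includes 1. The difference of the log2 fold changes of FPKM + 1 was 0.76, and 94.0% of the expressed genes had a lower one. On this scale it was the largest among the members. With a pseudocount of 0.1 it was 0.84, below the 0.95 of Pik3cd and the 0.87 of Pik3r5. The untreated clones differed by a ratio of 0.634 (0.579 to 0.693), and the clones under DFX by 1.14 (1.06 to 1.23). HM_Ctrl enters both the clone contrast and the DFX contrast of 4T1-HM, so these values rest on 1 shared library. None of the Pik3cb values reached 2-fold.

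Pik3cd (ENSMUSG00000039936, chromosome 4 from 149649168 to 149702571, minus strand) encodes p110δ, the catalytic subunit best known from leukocytes. Its FPKM was 1.47 and 0.979 in HM_Ctrl and HM_DFX and 1.94 and 0.628 in LM_Ctrl and LM_DFX, from 154, 88, 191 and 86 fragments. The DFX library was the lower one in each clone, and the lowest was LM_DFX. The FPKM ratio was 0.666 (0.507 to 0.871) in 4T1-HM and 0.324 (0.248 to 0.420) in 4T1-LM. The 4T1-LM value is 3.09-fold down in FPKM, yet on the FPKM + 1 scale it was −0.85 and was not called, and it was called with a pseudocount of 0.1. The fourth catalytic gene, Pik3cg, was listed at 0 in HM_Ctrl and LM_Ctrl and at most at 0.0205 with DFX.

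The summed FPKM of the catalytic genes was 19.6 in HM_Ctrl and 22.0 in HM_DFX, against 22.2 in LM_Ctrl and 17.4 in LM_DFX. Pik3ca made up 58.1% of it in HM_Ctrl (56.2% to 60.02%) and 43.3% in HM_DFX. It was 43.3% in LM_Ctrl and 38.5% in LM_DFX. Pik3cb made up 34.4%, 52.2%, 48.0% and 57.8% in the same order, so it was the larger share in each library other than HM_Ctrl. Per fragment, without division by gene length, Pik3ca led in HM_Ctrl, HM_DFX and LM_Ctrl, with 64.2%, 49.3% and 49.6% of the fragments, against 30.1%, 47.1% and 43.5% for Pik3cb.

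Among the regulatory genes, Pik3r2 (ENSMUSG00000031834, chromosome 8 from 70768176 to 70776713, minus strand) encodes p85β, which binds the class IA catalytic subunits. Its FPKM was 24.0 (HM_Ctrl), 10.7 (HM_DFX), 17.8 (LM_Ctrl) and 9.86 (LM_DFX), from 1676, 640, 1168 and 901 fragments. Both controls were above both DFX libraries, which lay close to each other. In 4T1-HM it fell by 1.10 on the log2 scale, 2.25-fold in FPKM (2.05 to 2.46). In 4T1-LM the value was −0.79, an FPKM ratio of 0.555 (0.508 to 0.605), short of 2-fold. Median-ratio scaling gave −0.97 in 4T1-HM, which is short of 2-fold as well, and −0.72 in 4T1-LM. The difference between the clones was −0.31, and 32.1% of the expressed genes had a lower one. Between the clones the FPKM ratio was 1.35 (1.25 to 1.45) in the controls and 1.08 (0.976 to 1.20) under DFX.

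Pik3r1 (ENSMUSG00000041417, chromosome 13 from 101680563 to 101768217, minus strand) encodes p85α and its shorter forms, the main regulatory subunits in many tissues. Its FPKM was 5.11 in HM_Ctrl and 3.52 in HM_DFX, against 3.03 in LM_Ctrl and 1.86 in LM_DFX. Both 4T1-HM libraries were above both 4T1-LM libraries, and the DFX library was the lower one in each clone. The FPKM ratio under DFX was 0.688 (0.615 to 0.768) in 4T1-HM and 0.616 (0.538 to 0.704) in 4T1-LM, with a difference of 0.06 in log2 fold change. Between the clones the ratio was 1.69 (1.51 to 1.89) in the controls and 1.89 (1.65 to 2.15) under DFX.

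Pik3r3 (ENSMUSG00000028698, chromosome 4 from 116221618 to 116303056, plus strand) encodes p55γ, a regulatory subunit with a short N-terminus. Its FPKM was 0.980 (HM_Ctrl), 1.27 (HM_DFX), 0.264 (LM_Ctrl) and 0.310 (LM_DFX), from 87, 97, 22 and 36 fragments. Both 4T1-HM libraries were above both 4T1-LM libraries. The FPKM ratio between the clones was 3.72 (2.31 to 6.23) in the controls and 4.11 (2.77 to 6.20) under DFX, while the log2 fold changes of FPKM + 1 were 0.65 and 0.80. The intervals of the DFX ratio included 1 in 4T1-HM (0.963 to 1.76) and in 4T1-LM (0.674 to 2.10). The values are uncertain, because 23.7% of the 31-mers of Pik3r3 also occur in another gene, Gm49337, which overlaps it by 1289 exonic bases on the same strand and was listed at 0 in each library.

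The class IA regulatory genes Pik3r1, Pik3r2 and Pik3r3 together gave a summed FPKM of 30.1 and 15.5 in HM_Ctrl and HM_DFX and 21.1 and 12.0 in LM_Ctrl and LM_DFX. Pik3r2 was 79.7%, 69.0%, 84.4% and 81.9% of it, in that order. Per fragment, without division by gene length, Pik3r2 was 63.8%, 51.4%, 69.9% and 66.8%. The sum of the regulatory genes was 1.53 times that of the catalytic genes in HM_Ctrl and 0.9497 times in LM_Ctrl. With DFX it was 0.702 times in HM_DFX and 0.691 times in LM_DFX. The controls thus differed in this ratio and the DFX libraries lay close together. The ratio rests on division by gene length and was not computed per fragment.

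Pik3r5 (ENSMUSG00000020901, chromosome 11 from 68432121 to 68497849, plus strand) encodes p101, which couples p110γ to G protein βγ subunits and is best known from leukocytes. Its FPKM was 0.118 (HM_Ctrl), 1.93 (HM_DFX), 1.05 (LM_Ctrl) and 5.77 (LM_DFX), from 11, 154, 92 and 701 fragments. The DFX library was the higher one in each clone, and within each treatment 4T1-LM was above 4T1-HM. The log2 fold change under DFX was 1.39 in 4T1-HM and 1.72 in 4T1-LM, and 96.9% and 98.0% of the expressed genes had a lower one. In FPKM the ratios were 16.3 (8.87 to 33.4) and 5.48 (4.40 to 6.88). Which clone changed more depends on the scale, since the difference HM minus LM was −0.33 on the FPKM + 1 scale, 0.22 for TPM and 0.87 with a pseudocount of 0.1.

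Between the clones Pik3r5 was 8.90-fold lower in HM_Ctrl than in LM_Ctrl (4.75 to 18.5) in FPKM, a log2 fold change of −0.88 that was not called. Under DFX it was 2.99-fold lower in 4T1-HM (2.51 to 3.58), a log2 fold change of −1.21 that was called. Pik3cg, the gene of p110γ, the catalytic partner of p101, was near 0 as given above. Pik3r6, which encodes the related regulatory subunit p84, was listed at 0 in each library. Cd68, a lysosomal glycoprotein gene used as a macrophage marker, was higher under DFX in both clones, as was Pik3r5. The FPKM of Cd68 was 12.9 in HM_Ctrl and 37.4 in HM_DFX, against 12.3 in LM_Ctrl and 83.1 in LM_DFX. Between the controls, where Pik3r5 was lower in 4T1-HM, Cd68 had a log2 fold change of 0.07. The other 8 leukocyte markers summed to 0.333 (HM_Ctrl), 0.659 (HM_DFX), 0.113 (LM_Ctrl) and 0.0993 (LM_DFX), and 4 or 5 of the 9 were at 0 in each library, including Cd3e and Adgre1. The part of the Cd68 signal in the Pik3r5 values was not tested.

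**Figure D3:**
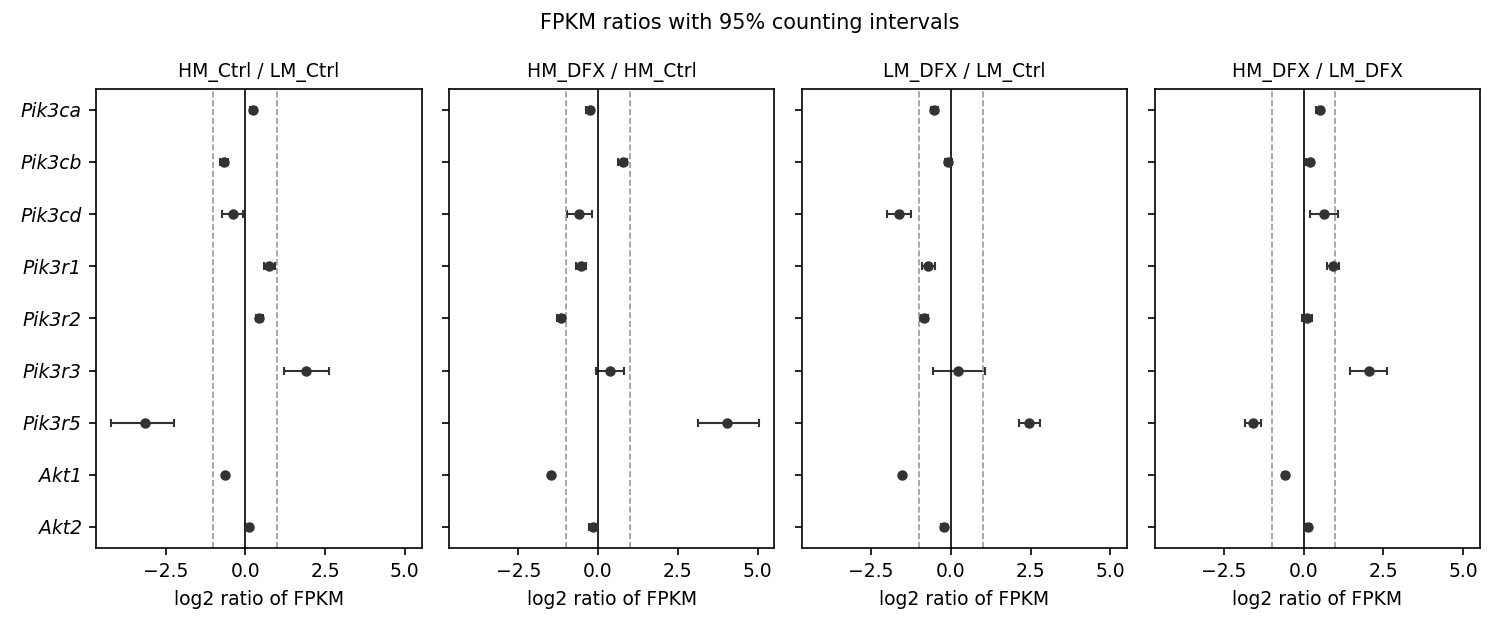
Log2 ratio of FPKM for the 9 members in each contrast, with 95% counting intervals as bars, a solid line at no change and dashed lines at 2-fold. Akt1 lies left of the 2-fold line in both DFX contrasts and Pik3r5 right of it, and Pik3r3 and Pik3r5 have the widest intervals. Calls in the text use FPKM + 1 and so differ for genes of low FPKM.

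The members were then counted in each contrast. In HM_Ctrl against LM_Ctrl no member reached 2-fold on the FPKM + 1 scale. Of all expressed genes 6.8% did, 3.15% lower and 3.65% higher. Of the 9, 5 were above 0 and 4 below, where 48.2% of the expressed genes were below 0. The median log2 fold change was 0.09, against 0.01 over all expressed genes. The counting interval of the FPKM ratio excluded 1 for each of the 9 members. It did so for 8 in HM_DFX against HM_Ctrl, 7 in LM_DFX against LM_Ctrl and 8 in HM_DFX against LM_DFX. The same count was not made over all expressed genes, and the intervals cover counting error only, so nothing is read from these counts. With a pseudocount of 0.1, Pik3r5 was called lower and Pik3r3 higher in HM_Ctrl against LM_Ctrl.

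In HM_DFX against HM_Ctrl 2 members were called lower, Akt1 and Pik3r2, and 1 higher, Pik3r5, where 12.4% of the expressed genes were called lower and 6.93% higher, 19.3% in all. The median over the members was −0.24, against −0.10 over all expressed genes. Of the 9, 6 were below 0, against 55.9% of the expressed genes. Median-ratio scaling moved the median over all genes to 0.00 and the counts over all genes from 1568 lower and 878 higher to 1276 lower and 1118 higher, and left Akt1 as the 1 member called lower, at −1.32. In LM_DFX against LM_Ctrl 1 member was called lower, Akt1, and 1 higher, Pik3r5, where 8.72% of the expressed genes were called lower and 7.09% higher, 15.8% in all. The median over the members was −0.46, against −0.04 over all expressed genes. Of the 9, 7 were below 0, against 52.6% of the expressed genes.

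In HM_DFX against LM_DFX only Pik3r5 was called, as lower, where 5.05% of the expressed genes were called lower and 3.31% higher, 8.36% in all. The median over the members was 0.17, against −0.05. Of the 9, 2 were below 0, against 54.2% of the expressed genes. For the difference of the DFX responses, HM minus LM, no member reached 2-fold on the FPKM + 1 scale. Of the expressed genes 8.9% did, 5.38% lower and 3.52% higher. In FPKM without a pseudocount, the DFX ratio of Pik3r5 was 16.3 in 4T1-HM and 5.48 in 4T1-LM, more than 2-fold apart. That of Pik3cd was 0.666 and 0.324, also more than 2-fold apart. Each count of called members in these contrasts is 0 to 2 of 9 genes and is given beside the background only as a description. The DFX contrasts of the clones share no library, whereas each shares its control with the contrast of the untreated clones.

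**Figure D4:**
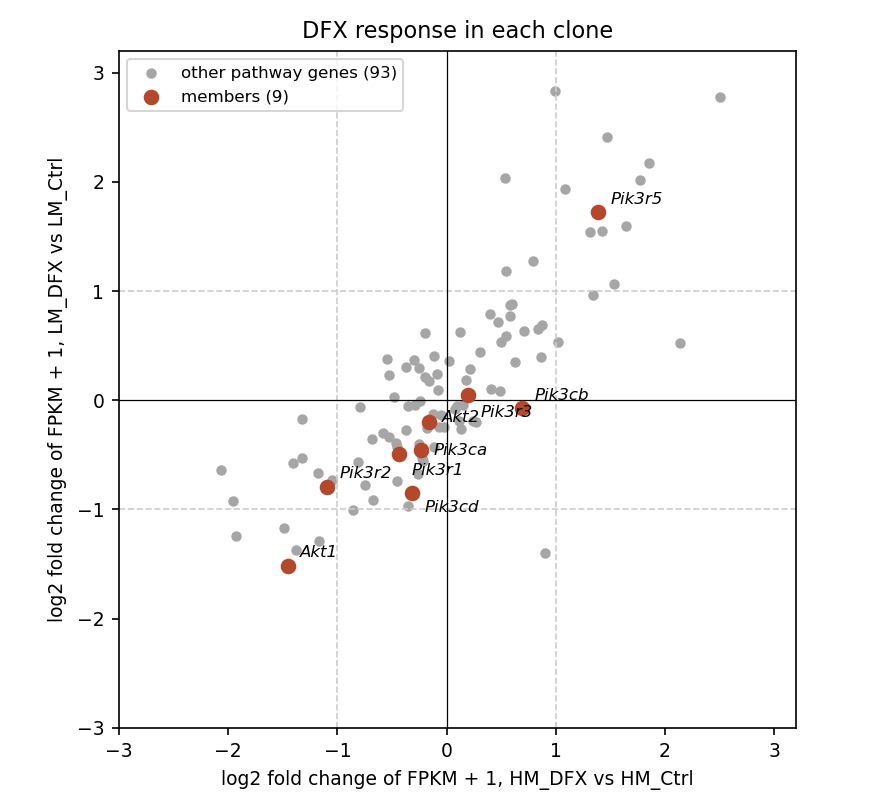
Log2 fold change of FPKM + 1 under DFX in 4T1-HM (x axis) and in 4T1-LM (y axis) for the 9 members (red, named) and the 93 other expressed genes of the pathway lists (grey), with dashed lines at 2-fold. Akt1 lies at −1.46 and −1.51 and Pik3r5 at 1.39 and 1.72. Among the 9 members Pik3cb, at a difference of 0.76 between the clones, lies farthest from the diagonal on this FPKM + 1 scale. Some grey genes lie farther, such as Irs2 at a difference of 2.31.

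The rest of the pathway was read from lists of 107 genes, Pik3cg and Pik3r6 included, of which 93 were expressed. In HM_DFX against HM_Ctrl 11 of the 93 were at least 2-fold lower and 12 higher (11.8% and 12.9%, against 12.4% and 6.93% of all expressed genes). In LM_DFX against LM_Ctrl 6 were lower and 13 higher (6.45% and 14.0%, against 8.72% and 7.09%). The medians were −0.07 and 0.04, against −0.10 and −0.04 over all expressed genes. In the untreated clones 3 of the 93 were lower in HM_Ctrl, among them the mTORC2 gene Prr5, and 6 were higher, among them Gab1, Trib2 and Trib3. These were 3.23% and 6.45%, against 3.15% and 3.65% of all expressed genes. Under DFX 1 of the 93, Txnip, was lower in HM_DFX than in LM_DFX, and 4 were higher, Irs2, Gab1, Akt1s1 and Atg14. Their shares were 1.08% and 4.30%, against 5.05% and 3.31%. Between the DFX responses of the clones, 5 of the 93 differed by 2-fold or more toward lower values in 4T1-HM and 2 toward higher ones. That was 5.38% and 2.15%, against 5.38% and 3.52%.

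Upstream of PI3K, 19 of 23 genes for receptors, adaptors and RAS proteins were expressed, and in each clone 4 were called lower and 1 higher under DFX. Over all expressed genes 12.4% were called lower and 6.93% higher in 4T1-HM, and 8.72% and 7.09% in 4T1-LM. Fgfr2 and Erbb2, which encode receptor tyrosine kinases, were called lower in both clones, and Gab2, an adaptor that recruits p85, higher in both. Axl, a receptor tyrosine kinase gene, fell from an FPKM of 242 to 61.8 in 4T1-HM and went from 187 to 98.0 in 4T1-LM, with log2 fold changes of −1.95 and −0.92. Irs2, which encodes an insulin receptor substrate that binds p85, had opposite directions, with an FPKM of 7.74 in HM_Ctrl and 15.4 in HM_DFX, against 16.1 in LM_Ctrl and 5.49 in LM_DFX, and its difference between the clones was 2.31.

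Of 20 genes listed as lipid phosphatases or other regulators of PIP3 or AKT signalling, 18 were expressed. Trib3, a pseudokinase gene whose product can bind AKT, was called higher under DFX in both clones, with log2 fold changes of 1.08 and 1.94. Trib2 and Inpp5e were called lower in 4T1-HM, and no gene of the list was called lower in 4T1-LM. Over all expressed genes 12.4% and 8.72% were called lower in these clones, and 6.93% and 7.09% higher. Of 10 expressed genes for the kinases, mTORC2 parts and chaperones that activate AKT, none was called under DFX in either clone. In either direction 19.3% and 15.8% of all expressed genes were called. The PDK1 gene Pdpk1, a member of that list chosen here after its values were seen, had log2 fold changes of 0.88 and 0.68.

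Downstream of AKT, all 24 substrate genes were expressed. Under DFX 4 were called lower and 4 higher in 4T1-HM, against 12.4% and 6.93% of all expressed genes. In 4T1-LM 2 were called lower and 4 higher, against 8.72% and 7.09%. Cdkn1a, which encodes the cell cycle inhibitor p21, rose from an FPKM of 14.1 to 84.5 in 4T1-HM and from 8.09 to 61.3 in 4T1-LM. Foxo3, a forkhead factor that AKT keeps out of the nucleus, rose by 1.77 and 2.01 on the log2 scale, and the p53 ligase gene Mdm2 by 1.64 and 1.60. Acly, which encodes ATP citrate lyase, fell by 1.38 and 1.37. Of 28 genes described as FOXO targets, 24 were expressed, with median log2 fold changes under DFX of 0.52 in 4T1-HM and 0.53 in 4T1-LM. In 4T1-HM 6 were called higher and 1 lower, against 6.93% and 12.4% of all expressed genes. In 4T1-LM 7 were called higher and 1 lower, against 7.09% and 8.72%. Txnip, Gadd45a, Atg14 and Bcl6 were called higher in both clones. The untreated clones also differed in this list, with a median of 0.54 for HM_Ctrl against LM_Ctrl, 3 genes called higher and 2 lower. Over all expressed genes 3.65% were called higher and 3.15% lower, with a median of 0.01. RNA levels of these genes are not measures of AKT activity, which was not measured in these libraries. Of 5 genes for PI3K classes II and III, 4 were expressed and none was called in any of these contrasts. The share called over all expressed genes was 6.8% to 19.3%.

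Genes with the most similar profile were sought for Pik3r5, Akt1 and Pik3r2, the 3 members with the widest range of log2 (FPKM + 1). The measure was the Euclidean distance between log2 (FPKM + 1) profiles, centred on their means over the 4 libraries, among 8916 genes. Nearest to Pik3r2 was Hif1a, which encodes the oxygen- and iron-regulated subunit of hypoxia-inducible factor, at a distance of 0.0457. Hif1a was at an FPKM of 69.1 in HM_Ctrl and 30.6 in HM_DFX, against 51.9 in LM_Ctrl and 29.1 in LM_DFX, so its order of libraries was that of Pik3r2. Pura (0.0681) and Cgref1 (0.0686) followed. Nearest to Akt1 were Arhgap19 (0.0939), Scarf2 (0.111) and Bnc1 (0.113). Nearest to Pik3r5 were the interferon-induced genes Apol9b (0.425) and Isg20 (0.438) and the pseudogene Gm6548 (0.442), at larger distances than those found for Akt1 and Pik3r2. The ranking rests on 4 libraries and says nothing of shared control.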

How the data were processed

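The authors selected poly(A) RNA, made directional libraries and sequenced paired ends. Per the labels, the tools were FastQC, Trimmomatic, HISAT2 and featureCounts, on the build mm10, and their versions and the strand setting of the counting are not given in the sources used here. The deposited values are FPKM per gene and library, with no filter or pooling. Gene coordinates equalled GENCODE release M21 for 45128 genes. With its exon lengths, 96.8% of 18236 such genes above 0 resolved to integer fragments in each library, with a tolerance of 0.02, and these fragments gave the depth and the counting intervals.

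Fold changes are log2 ratios of FPKM with a pseudocount of 1, over genes that reached an FPKM of 1 in any library, and 2-fold was called. The authors called genes with edgeR. No test was run here, since each condition has 1 library, and neither a count model at an assumed dispersion nor a fit with the clones as replicates was tried. Named genes were the 9 members, the class I genes Pik3cg and Pik3r6, Tfrc and Ndrg1. Added to these were the 3 genes per pathway list and comparison with the largest change of at least 2-fold at an FPKM of at least 5. The 3 genes most like each of the 3 members with the widest range of log2 (FPKM + 1) were named too. Genes named beyond this rule, such as Pdpk1, were chosen after their values were seen. The members and the lists, which come from general knowledge, were chosen with earlier results of these data known. Some results that the rule or the lists cover are not reported here. The interval and calling code was tested on simulated data. Alternatives were another pseudocount, 2 scalings, TPM, 2 filters, a 1.5-fold threshold and shares of fragments. Python 3.11.15, pandas 2.3.3, NumPy 2.4.6 and SciPy 1.17.1 were used.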

Additional observations from a re-analysis of the deposited data

How the results depend on the processing

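No paired analysis was possible because each condition has 1 library, so that the groups share no more than 1 replicate number. A fit with clone and DFX as additive terms, which would take the clones as replicates, was not run. The log2 fold change of no called member changed sign under any alternative. A pseudocount of 0.1 and TPM had the same effect on the members: in HM_Ctrl against LM_Ctrl 1 became lower (Pik3r5) and 1 higher (Pik3r3), in LM_DFX against LM_Ctrl 2 were lower, with Pik3cd added to Akt1, and in HM_DFX against LM_DFX 1 was higher (Pik3r3). Median-ratio scaling left 1 member lower in HM_DFX against HM_Ctrl. At a threshold of 1.5-fold, 3 members were lower and 2 higher in HM_Ctrl against LM_Ctrl, where 1102 and 1329 of the 12669 expressed genes were. In HM_DFX against HM_Ctrl 2 were higher (2031), and in LM_DFX against LM_Ctrl 3 were lower (2528). In HM_DFX against LM_DFX 2 were higher (1260), and for the difference of the responses 1 was higher (1238). The numbers in brackets are the expressed genes called in that direction. Counts over all expressed genes at the other settings follow below. Scaling to the 75th percentile was read over 55 values, the fold changes of the members and the counts over all expressed genes. It moved no fold change by as much as the width of its 95% counting interval and no count by more than 1.5 times. Leaving out the filter moved none of the 10 counts over all genes by that much. Requiring a mean FPKM of at least 1 removed Pik3r3.

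Counts over all expressed genes, 12669 unless the filter was changed, moved more. With a pseudocount of 0.1 they were 674 lower and 883 higher (399 and 462 with a pseudocount of 1) in HM_Ctrl against LM_Ctrl, 2397 lower (1568) in HM_DFX against HM_Ctrl, 1721 and 1349 (1105 and 898) in LM_DFX against LM_Ctrl, 1183 and 810 (640 and 419) in HM_DFX against LM_DFX, and 1325 and 744 (682 and 446) for the difference. TPM gave 543 lower and 804 higher in HM_Ctrl against LM_Ctrl, 1555 lower in LM_DFX against LM_Ctrl and 747 higher in HM_DFX against LM_DFX. For the difference it gave 1067 lower, where the mean filter gave 289 higher. At 1.5-fold the counts, lower then higher, were 1102 and 1329, 3297 and 2031, 2528 and 2088, 1848 and 1260, and 2078 and 1238, in the same order. Shares of fragments in place of FPKM moved 28 of 36 values by more than their counting interval. Depth limits Pik3cd, Pik3r3 and Pik3r5 most, with 11 to 191 fragments in the controls, and variation between cultures cannot be measured here.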
